A study of Mus musculus with 24 samples.

Results

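The genes of fatty acid and triglyceride synthesis are the regulators, enzymes and carriers with which liver turns surplus sugar and acetate into fatty acids and then into stored fat. The list held 33 genes, chosen by their symbols in the platform annotation, and 31 of them had a probe set of their own among the 18193 genes measured. Nr1h2, a gene for a liver X receptor, and Acsl1, a gene for an acyl-CoA synthetase, were not analysed here. Liver RNA came from 24 male BALB/c mice that carried no named allele, were bought at 6 weeks of age, ate a standard chow for a week and then a purified diet for 14 days. The diet groups of 6 mice each were AIN93G alone (control) and AIN93G with 0.1%, 0.5% or 1.0% quercetin, a flavonol of onions, apples and tea. Each mouse had 1 Affymetrix array. Mice were kept 3 to a cage and the labels do not give the cage of each mouse, so that cage and diet cannot be told apart. For all mice the dark period ran through the daytime, from morning to evening. The labels used here do not give the hour of killing or the food state of each mouse.

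New fatty acids are built in the cytosol. Citrate leaves the mitochondrion and is split into acetyl-CoA, acetyl-CoA carboxylase makes malonyl-CoA from it, and fatty acid synthase joins these units into palmitate, which elongases and desaturases lengthen and unsaturate. Acyl-CoA synthetases activate the products, and acyltransferases add them in turn to glycerol phosphate until triglyceride is formed. In liver this pathway is switched on after feeding, largely by the sterol response element binding protein encoded by Srebf1 and the carbohydrate response factor encoded by Mlxipl, with liver X receptors acting above Srebf1.

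At 0.5% and 1.0% quercetin most of these genes lay below their level in control mice and, by a wider margin, below their level at 0.1%, but no gene of the 31 passed the test over all genes in any of the 8 tests made. Levels below are log2(intensity + 1) after quantile normalization between arrays, differences and slopes are on the same log2 scale, a slope is the difference fitted per 1.0% quercetin in the diet, and folds are fitted on that scale, which understates the change of dim genes. A gene was called at a limma adjusted p under 0.05 (Benjamini-Hochberg over 18193 genes). A probe set's level cannot be set against that of another probe set. In bulk liver, fewer cells of a type and less RNA per cell cannot be told apart.

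The arrays were examined first. Array medians of the deposited intensities ran from 4.78 to 7.58 and their ranges overlapped between diets. The 7 hepatocyte markers gave summed linear levels of 57080 to 59930 over all mice. The 5 measured fat cell markers, of which Car3 and Fabp4 are not confined to fat cells, gave summed levels with medians of 8634 in control mice and 8876, 8711 and 8656 at the rising doses. Nearly all of this sum was Car3, at a mean level of 13.07 over all mice. Adipoq, Lep and Retn were very dim, at 1.23, 0.88 and 1.47. The sum therefore cannot show whether a sample held fat tissue. On the first principal component of all genes, 4 arrays stood apart from the rest by more than 3 median absolute deviations, namely replicates 4 and 6 at 0.5% and replicates 4 and 5 at 1.0%. In these 4 arrays the summed level of 6 neutrophil markers had a median of 160.3, against 47.1 in control mice, and that of 10 fasting-induced genes a median of 8997, against 4734 in control mice. In such linear sums bright genes weigh most, and Igfbp1 of the fasting list ran from 5.73 to 12.46 over all mice. The sum need not speak for the whole list. Counts of genes and the slopes of most genes named are also given without the 4 arrays apart.

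Promoters are shown for 4 genes around which the results below turn: Srebf1 and Gpam, which varied together from mouse to mouse, and Fasn and Thrsp, whose slopes had opposite signs. Each is the 300 bases from 250 before to 50 after an annotated start site, 5′ to 3′ on the gene's strand, from RefSeq on GRCm38.p6, and capitals mark the letters CCAAT of the NF-Y box on either strand. NF-Y is a factor that binds beside the sterol response element binding protein at many lipogenic promoters. Srebf1 lies at chr11:60210422-60210721, the downstream of its 3 listed starts, Gpam at chr19:55127189-55127488, the upstream of its listed starts, Fasn at chr11:120824498-120824797 and Thrsp at chr7:97417501-97417800, all on the minus strand.
Srebf1: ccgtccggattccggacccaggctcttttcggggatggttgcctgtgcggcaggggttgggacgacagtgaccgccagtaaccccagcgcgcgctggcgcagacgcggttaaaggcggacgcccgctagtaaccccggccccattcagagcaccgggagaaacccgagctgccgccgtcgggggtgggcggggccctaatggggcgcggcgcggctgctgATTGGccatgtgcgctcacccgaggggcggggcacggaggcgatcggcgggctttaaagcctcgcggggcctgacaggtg
Gpam: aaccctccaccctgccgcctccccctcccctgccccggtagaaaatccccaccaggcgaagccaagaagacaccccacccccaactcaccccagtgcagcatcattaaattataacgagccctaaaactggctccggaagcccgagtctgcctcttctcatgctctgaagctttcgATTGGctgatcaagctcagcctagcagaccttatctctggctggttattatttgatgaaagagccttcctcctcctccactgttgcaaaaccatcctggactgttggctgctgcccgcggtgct
Fasn: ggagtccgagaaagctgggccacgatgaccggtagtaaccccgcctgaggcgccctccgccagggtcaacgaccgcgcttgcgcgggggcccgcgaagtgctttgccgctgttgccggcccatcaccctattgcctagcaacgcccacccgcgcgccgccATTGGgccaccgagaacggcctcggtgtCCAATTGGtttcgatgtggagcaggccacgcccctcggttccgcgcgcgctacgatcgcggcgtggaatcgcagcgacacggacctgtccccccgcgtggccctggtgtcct
Thrsp: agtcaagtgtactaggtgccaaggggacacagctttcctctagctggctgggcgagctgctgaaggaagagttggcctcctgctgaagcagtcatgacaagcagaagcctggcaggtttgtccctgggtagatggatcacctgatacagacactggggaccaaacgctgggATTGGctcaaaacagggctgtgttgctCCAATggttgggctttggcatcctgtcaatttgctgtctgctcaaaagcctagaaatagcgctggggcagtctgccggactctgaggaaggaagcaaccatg

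With the start site counted as 1 and the base before it as -1, the boxes began at -30 in Srebf1, at -74 in Gpam, at -79 and -52 in Thrsp and at -90, -62 and -59 in Fasn, where the last pair overlap on opposite strands. The other listed start of Gpam and the middle start of Srebf1 held no CCAAT in this window. Over the 27 members with a listed promoter, 17 (63.0%) held CCAAT, against 41.1% of 27025 genes. The sterol element TCACNCCAC was found in 2 of the 27 (7.4%), Acsl1 and Mlxipl, against 1.44% of all genes. The E-box CACGTG, to which the upstream stimulatory factors bind, was found in 4 (14.8%), namely Elovl5, Mlxipl, Pnpla5 and Slc25a1, against 8.09% of all genes. The liver X receptor direct repeat, searched only as a perfect repeat with no mismatch allowed, was in none of the 27. That perfect form was found in only 4 of 27025 genes (0.0148%). Its absence therefore cannot show that these promoters, that of Srebf1 among them, lack a site for the receptor. Both strands were searched for exact letters, none of the motifs contains another, and these counts describe this window only. The 4 promoters shown hold neither the sterol element nor the E-box as spelled here.

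Srebf1 had the largest slope in size of the 31 genes. Its level ran from 7.77 to 8.44 in control mice (median 8.28), from 8.27 to 8.82 at 0.1% (median 8.65), from 6.17 to 8.23 at 0.5% (median 7.26) and from 6.18 to 8.25 at 1.0% (median 7.62). Every mouse at 0.5% and at 1.0% lay below every mouse at 0.1%, whereas both higher doses overlapped control and spread far more widely than control mice did. Srebf1 was 0.96 lower at 0.5% than in control (SE 0.336, limma adjusted p = 0.554) and 0.83 lower at 1.0% than in control (adjusted p = 0.468), while at 0.1% it was 0.41 higher than in control (adjusted p = 0.997). Against 0.1% it was 1.37 lower at 0.5% (SE 0.336, adjusted p = 0.105) and 1.24 lower at 1.0% (adjusted p = 0.153). These fits pool the spread of all 4 diets. The SD of Srebf1 was 0.27 in control mice and 0.19, 0.83 and 0.80 at the rising doses. The SE of 0.1% against control thus also carries the scatter of the higher doses. The slope was -1.16 (SE 0.339, adjusted p = 0.167). The 4 arrays apart held Srebf1 at 6.17 to 6.67, below all other mice of the higher doses (6.73 to 8.25), and without them the slope was -0.66 (SE 0.258, adjusted p = 0.472).

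The other regulators had smaller slopes than Srebf1. Mlxipl had levels from 7.95 to 8.46 in control mice (median 8.28), from 7.89 to 8.45 at 0.1% (median 8.26), from 7.6 to 8.66 at 0.5% (median 8.15) and from 7.50 to 8.47 at 1.0% (median 8.09), with a slope of -0.17 (SE 0.156, adjusted p = 0.744), or 0.06 without the arrays apart. Nr1h3, which encodes the main liver X receptor of liver, had levels from 7.26 to 7.65 in control mice (median 7.53), from 7.32 to 7.63 at 0.1% (median 7.48), from 7.16 to 7.71 at 0.5% (median 7.44) and from 7.22 to 7.46 at 1.0% (median 7.42), with a slope of -0.11 (SE 0.0897, adjusted p = 0.713). Both genes overlapped between all 4 diets. Mid1ip1, whose product binds acetyl-CoA carboxylase and helps it polymerise, ran from 7.21 to 7.69 in control mice (median 7.41), from 7.43 to 7.97 at 0.1% (median 7.77), from 5.28 to 7.61 at 0.5% (median 7.04) and from 6.65 to 7.57 at 1.0% (median 7.30). It was lowest at the middle dose, 0.79 below control (SE 0.300, adjusted p = 0.563) and 1.10 below 0.1% (adjusted p = 0.168), and without the arrays apart the difference from 0.1% was -0.50.

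Thrsp, whose product (Spot 14) is a partner of the Mid1ip1 protein and is itself a usual mark of lipogenic liver, lay in the other direction. Its level ran from 9.57 to 10.53 in control mice (median 9.81), from 9.16 to 10.64 at 0.1% (median 9.81), from 9.998 to 11.70 at 0.5% (median 10.96) and from 9.40 to 11.67 at 1.0% (median 10.69). All 6 mice at 0.5% and 5 of 6 at 1.0% lay above the control mean, although the ranges overlapped. Thrsp was 0.94 higher at 0.5% than in control (SE 0.350, adjusted p = 0.563), a fold of 1.92, and 0.65 higher at 1.0% than in control (adjusted p = 0.625). The slope of Thrsp was 0.78 (SE 0.333, adjusted p = 0.387), a second bright probe set of Thrsp gave 0.84, and a much dimmer one gave -0.04. Aacs, for an enzyme that activates the ketone body acetoacetate for lipid synthesis, had the only other slope above 0.1 among the 31, at 0.55 (SE 0.295, adjusted p = 0.519), with levels from 5.65 to 6.70 in control mice (median 6.25), from 5.07 to 6.85 at 0.1% (median 5.97), from 5.68 to 7.30 at 0.5% (median 6.70) and from 5.89 to 7.43 at 1.0% (median 6.53). Without the arrays apart the slopes were 0.49 for Thrsp and 0.40 for Aacs.

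**Figure D1:**
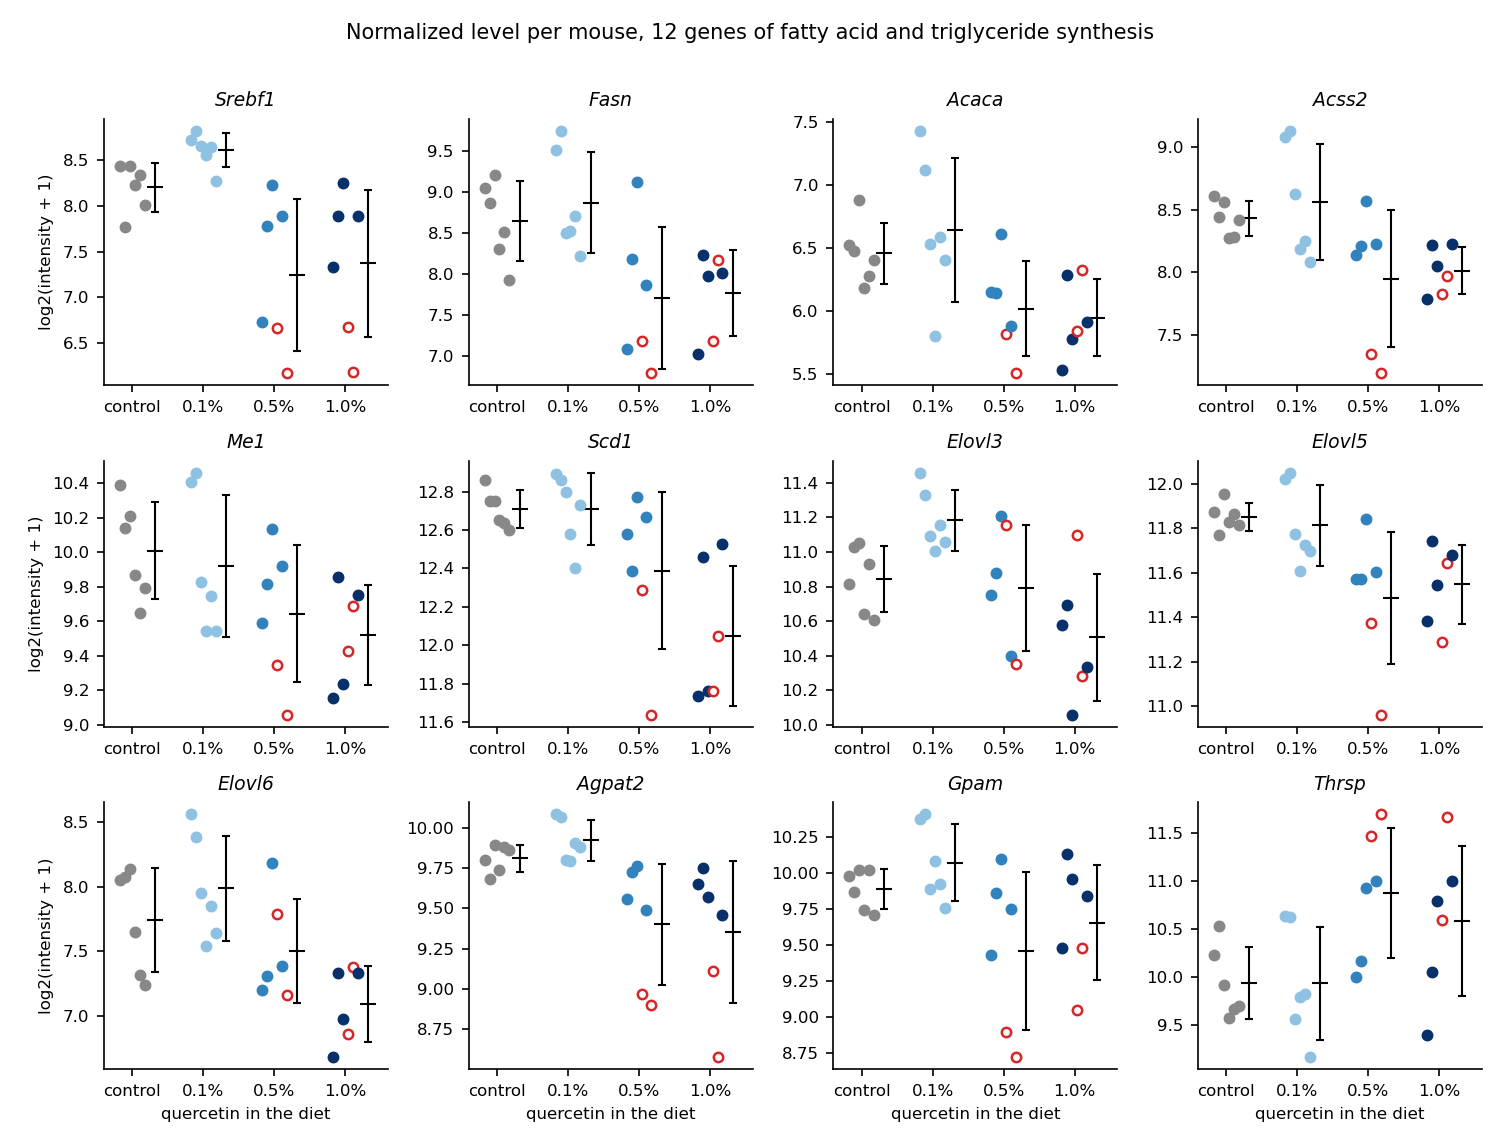
Normalized level, log2(intensity + 1), of 12 genes in each mouse by quercetin content of the diet, 6 mice per diet. Each point is 1 mouse, open red points are the 4 arrays that stood apart, and the bars are the mean ± SD; Srebf1 at both higher doses lies below all mice at 0.1%, while Thrsp lies higher at 0.5% and 1.0% than in control on average.

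Of the 7 genes of acetyl-CoA, malonyl-CoA and NADPH supply, 6 had slopes below 0 (52.4% of all genes), 5 of them at an unadjusted p under 0.05 (6.05% of all genes), and none passed over all genes. Their median slope was -0.54, against -0.01 over all genes. Fasn, for fatty acid synthase, ran from 7.93 to 9.22 in control mice (median 8.69), from 8.22 to 9.75 at 0.1% (median 8.62), from 6.79 to 9.13 at 0.5% (median 7.53) and from 7.03 to 8.24 at 1.0% (median 8.0). All 6 mice at 1.0% lay below the control mean, although the ranges overlapped. Fasn was 0.88 lower at 1.0% than in control (SE 0.358, adjusted p = 0.481), a fold of 0.545, 0.94 lower at 0.5% than in control (adjusted p = 0.563), and its slope was -1.11 (SE 0.34, adjusted p = 0.19), or -1.02 without the arrays apart.

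Acaca, for the cytosolic acetyl-CoA carboxylase, had levels from 6.19 to 6.88 in control mice (median 6.44), from 5.80 to 7.43 at 0.1% (median 6.56), from 5.51 to 6.62 at 0.5% (median 6.01) and from 5.54 to 6.33 at 1.0% (median 5.88) and a slope of -0.65 (SE 0.206, adjusted p = 0.206). Acly, for the citrate lyase, ran from 8.42 to 9.46 in control mice (median 8.72), from 8.71 to 10.38 at 0.1% (median 9.26), from 7.61 to 9.60 at 0.5% (median 8.22) and from 7.88 to 9.08 at 1.0% (median 8.48). Its highest values were thus those of the lowest dose: it was 0.59 higher at 0.1% than in control (SE 0.32, adjusted p = 0.993), while at 0.5% and 1.0% it was 1.09 and 1.01 lower than at 0.1% (adjusted p = 0.213 and 0.276). Acacb, whose product makes malonyl-CoA at the mitochondrion where it curbs fat oxidation, had levels from 5.53 to 5.81 in control mice (median 5.76), from 5.56 to 7.13 at 0.1% (median 5.74), from 4.44 to 6.21 at 0.5% (median 5.45) and from 4.43 to 5.78 at 1.0% (median 5.39) and a slope of -0.68 (SE 0.273, adjusted p = 0.356). Its mean was 0.44 higher at 0.1% than in control (adjusted p = 0.997), although its median was not, and the highest mouse of that diet reached 7.13.

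Acss2, for the enzyme that makes acetyl-CoA from acetate, ran from 8.27 to 8.61 in control mice (median 8.43), from 8.08 to 9.13 at 0.1% (median 8.44), from 7.20 to 8.57 at 0.5% (median 8.17) and from 7.79 to 8.23 at 1.0% (median 8.01). Every mouse at 1.0% lay below every control mouse, with a difference of -0.42 (SE 0.215, adjusted p = 0.608). A second bright probe set of Acss2 gave a difference of only -0.17 there (limma unadjusted p = 0.356). Its slope was -0.31, against -0.54 for the probe set used. Me1, for malic enzyme, a source of the NADPH that synthesis consumes, had levels from 9.65 to 10.39 in control mice (median 10.003), from 9.54 to 10.46 at 0.1% (median 9.79), from 9.05 to 10.13 at 0.5% (median 9.70) and from 9.16 to 9.86 at 1.0% (median 9.56) and a slope of -0.49 (SE 0.175, adjusted p = 0.282). Slc25a1, for the carrier that exports citrate from the mitochondrion, had a slope of -0.02 (SE 0.0974), and its 4 medians lay between 8.52 and 8.64.

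Among desaturases the lower levels were those of Scd1, the enzyme that places the first double bond in stearate and palmitate. Scd1 ran from 12.60 to 12.86 in control mice (median 12.70), from 12.40 to 12.89 at 0.1% (median 12.76), from 11.64 to 12.77 at 0.5% (median 12.48) and from 11.74 to 12.53 at 1.0% (median 11.90). No mouse at 1.0% reached the lowest control mouse. Scd1 was 0.66 lower at 1.0% than in control (SE 0.171, adjusted p = 0.292), a fold of 0.633, and its slope of -0.69 (SE 0.148) had the smallest adjusted p of the 31 genes, 0.0651. A second, dimmer probe set of the gene gave a slope of -1.28. Without the arrays apart the slope of the brighter probe set was -0.57 (adjusted p = 0.146).

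Scd2, the form typical of other tissues, was dim and had no steady order, with levels from 3.29 to 4.59 in control mice (median 3.84), from 3.38 to 4.17 at 0.1% (median 4.05), from 1.63 to 3.82 at 0.5% (median 3.48) and from 3.35 to 4.13 at 1.0% (median 3.80) and a slope of -0.22 (adjusted p = 0.842). Fads1 and Fads2, for the desaturases of polyunsaturated fatty acids, had slopes of 0.03 (SE 0.104) and -0.17 (SE 0.116). All 5 elongases measured had slopes below 0, each at an unadjusted p under 0.05 in limma (52.4% and 6.05% of all genes), and none passed over all genes.

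Elovl6, which lengthens palmitate, ran from 7.24 to 8.14 in control mice (median 7.85), from 7.54 to 8.56 at 0.1% (median 7.90), from 7.17 to 8.19 at 0.5% (median 7.35) and from 6.69 to 7.38 at 1.0% (median 7.16). Every mouse at 1.0% lay below every mouse at 0.1%. Elovl6 was 0.65 lower at 1.0% than in control (SE 0.216, adjusted p = 0.381), 0.89 lower at 1.0% than at 0.1% (SE 0.216, adjusted p = 0.0899), a fold of 0.539, and its slope was -0.78 with and without the arrays apart (adjusted p = 0.0953 with them and 0.258 without). A second bright probe set of Elovl6 gave -0.93, whereas a further, dim one gave 0.92.

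Elovl3, which builds very long saturated chains, ran from 10.60 to 11.05 in control mice (median 10.87), from 11.01 to 11.46 at 0.1% (median 11.12), from 10.35 to 11.21 at 0.5% (median 10.81) and from 10.06 to 11.10 at 1.0% (median 10.45). All 6 mice at 0.1% lay above the control mean and all 6 at 1.0% lay below the 0.1% mean. Elovl3 was 0.68 lower at 1.0% than at 0.1% (SE 0.169, adjusted p = 0.105), and 0.77 lower without the arrays apart (adjusted p = 0.057). Elovl5, an elongase of polyunsaturated chains, had levels from 11.77 to 11.95 in control mice (median 11.84), from 11.61 to 12.05 at 0.1% (median 11.75), from 10.96 to 11.84 at 0.5% (median 11.57) and from 11.29 to 11.74 at 1.0% (median 11.59). All 6 mice at 1.0% lay below all control mice for this gene, with a difference of -0.30 (SE 0.123, adjusted p = 0.474). Elovl1 and Elovl2, for elongases of very long chains, each had a slope of -0.22 (adjusted p = 0.418 and 0.382). For Elovl1 the unadjusted p depended on the probe set. Its other probe sets gave slopes of -0.11, -0.24 and -0.28 (limma unadjusted p = 0.37, 0.422 and 0.0137).

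Of 5 genes that join fatty acids to glycerol, 3 had slopes below 0 and 2 above (median -0.03), and none passed. Agpat2, for the acyltransferase that makes phosphatidic acid, ran from 9.68 to 9.89 in control mice (median 9.83), from 9.80 to 10.08 at 0.1% (median 9.89), from 8.90 to 9.77 at 0.5% (median 9.52) and from 8.58 to 9.75 at 1.0% (median 9.51). Every mouse at 0.5% and 1.0% lay below every mouse at 0.1%. The slope was -0.56 (SE 0.161, adjusted p = 0.159), and without the arrays apart, whose Agpat2 values of 8.58 to 9.11 lay below all others, it was -0.28 (adjusted p = 0.308). Gpam, for the acyltransferase that starts the pathway at the mitochondrion, had levels from 9.71 to 10.02 in control mice (median 9.92), from 9.76 to 10.40 at 0.1% (median 10.002), from 8.73 to 10.09 at 0.5% (median 9.59) and from 9.05 to 10.13 at 1.0% (median 9.66) and a slope of -0.38 (SE 0.203, adjusted p = 0.513).

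The last step showed no such order. Dgat1 and Dgat2, for the enzymes that complete triglyceride, had slopes of -0.03 (SE 0.135, adjusted p = 0.959) and 0.06 (SE 0.0863, adjusted p = 0.863). Dgat2 ran from 10.002 to 10.16 in control mice (median 10.08), from 9.89 to 10.05 at 0.1% (median 9.93), from 9.83 to 10.32 at 0.5% (median 10.07) and from 9.76 to 10.25 at 1.0% (median 10.14), and Dgat1 had levels from 6.20 to 6.66 in control mice (median 6.43), from 5.96 to 6.68 at 0.1% (median 6.37), from 6.02 to 6.61 at 0.5% (median 6.28) and from 5.80 to 6.71 at 1.0% (median 6.51). Agpat3, for another acyltransferase, had a slope of 0.06 (SE 0.0858). That these slopes missed the threshold does not show that the levels were equal.

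Of the acyl-CoA synthetases, Acsl5 had levels from 10.30 to 10.53 in control mice (median 10.37), from 10.23 to 10.71 at 0.1% (median 10.39), from 9.70 to 10.44 at 0.5% (median 10.11) and from 9.95 to 10.48 at 1.0% (median 10.18) and a slope of -0.28 (SE 0.115, adjusted p = 0.37). Acsl3 had the smallest p of the 31 genes at 0.1%: it ran from 3.92 to 4.44 in control mice (median 4.08), from 4.14 to 4.98 at 0.1% (median 4.43), from 3.64 to 4.14 at 0.5% (median 3.99) and from 3.87 to 4.63 at 1.0% (median 4.31). It was 0.38 higher at 0.1% than in control (SE 0.15, adjusted p = 0.942) and 0.55 lower at 0.5% than at 0.1%, with no overlap (adjusted p = 0.167), and its slope was -0.04. The patatin-like genes Pnpla3 and Pnpla5, whose family acts on stored lipid, were dim and scattered. Pnpla5 had levels from 3.88 to 5.03 in control mice (median 4.65), from 2.51 to 5.85 at 0.1% (median 4.40), from 2.04 to 4.69 at 0.5% (median 3.47) and from 2.19 to 4.44 at 1.0% (median 3.85) and a slope of -0.98 (SE 0.445, adjusted p = 0.423). Pnpla3 ran from 1.002 to 3.46 in control mice (median 2.91), from 1.19 to 3.98 at 0.1% (median 3.58), from 1.29 to 4.14 at 0.5% (median 3.07) and from 1.23 to 3.48 at 1.0% (median 2.65). It was 0.75 higher at 0.1% than in control (adjusted p = 0.997) and had a slope of -0.35 (SE 0.483), and all diets overlapped.

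**Figure D2:**
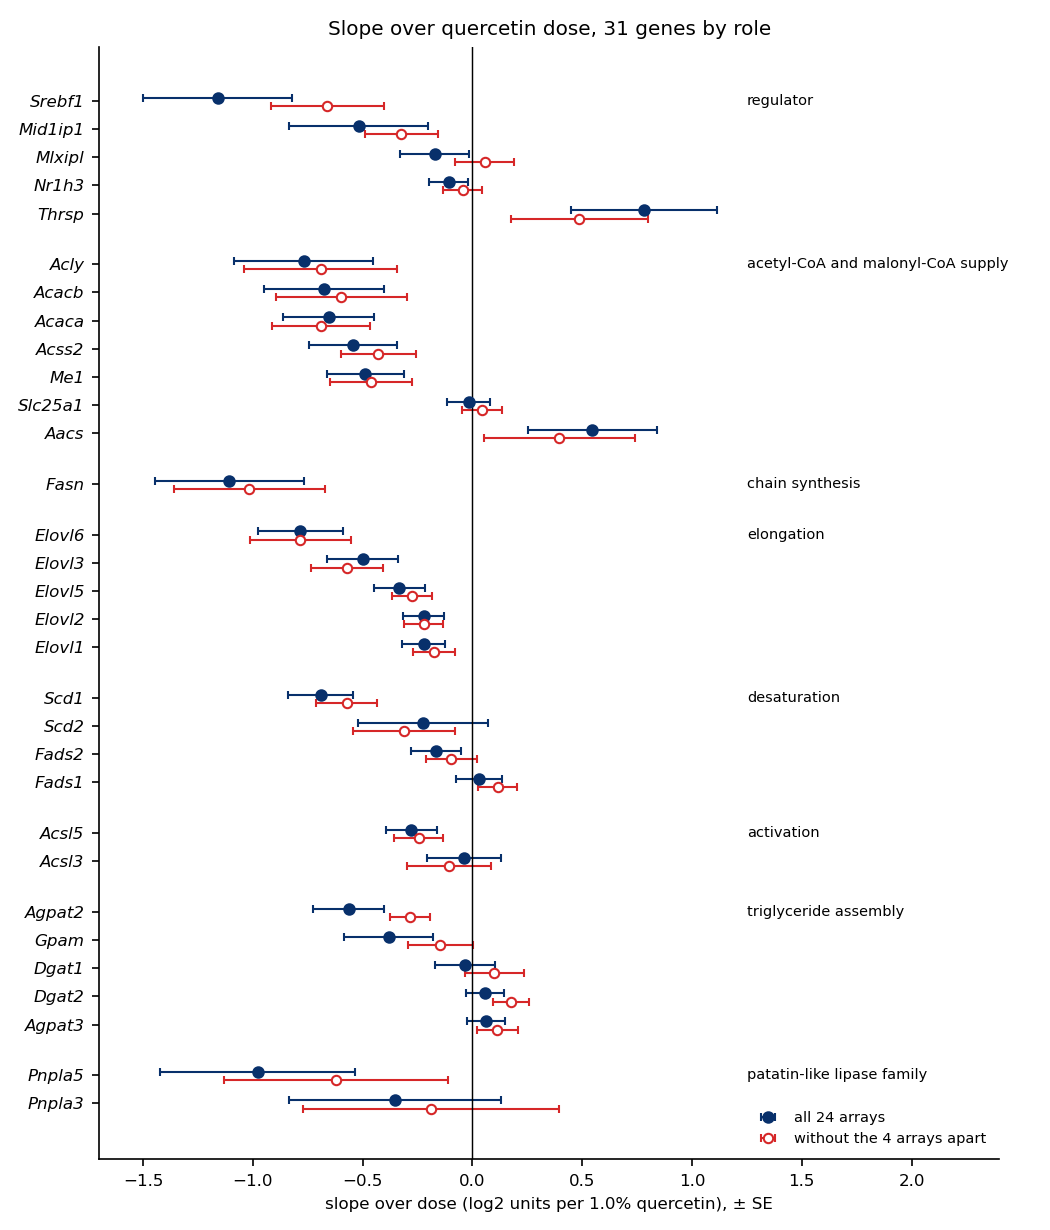
Slope over quercetin dose, in log2 units per 1.0% quercetin ± SE, of the 31 measured genes grouped by role, from all 24 arrays (filled) and without the 4 arrays apart (open). Most genes of carbon supply, chain synthesis and elongation lie left of 0 in both fits, Thrsp and Aacs lie right of 0, and Srebf1 and Agpat2 lie nearer 0 without the 4 arrays.

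Counted over the 31 genes, no gene was called at any dose against control, where the share of all genes called was 0 at 0.1%, 0.0165% at 0.5% and 0.022% at 1.0%. In all, 9 of 31 genes lay below control at 0.1%, 27 at 0.5% and 24 at 1.0% (47.7%, 53.4% and 51.6% of all genes). By an unadjusted p under 0.05 in limma, 0 genes lay lower and 1 higher at 0.1% than in control (2.35% and 2.76% of all genes). At 0.5% 8 lay lower and 1 higher than in control (3.91% and 3.74% of all genes), and at 1.0% 8 lay lower and 0 higher (4.47% and 4.45%). The median of the 31 differences from control was 0.06 at 0.1%, -0.24 at 0.5% and -0.21 at 1.0%, against 0.01, -0.02 and -0.01 over all genes. These 3 comparisons share their control mice. After each diet mean was subtracted, the median correlation between pairs of the 31 genes was 0.383, and 86.7% of pairs were positive. The counts here and below are thus not counts of independent genes. The same correlation among other genes was not computed. At 1.0%, 3 of the 31 had no overlap with control and lay lower, namely Scd1, Acss2 and Elovl5 (0.396% of all genes).

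The higher doses were also set against the lowest, in comparisons that share the mice at 0.1%. At 0.5% against 0.1%, 28 of 31 genes lay lower (54.7% of all genes), 17 of them at an unadjusted p under 0.05, with 2 higher (5.74% and 4.36% of all genes), and at 1.0% against 0.1% 26 lay lower (52.9% of all genes), 14 of them at an unadjusted p under 0.05, with 0 higher (5.21% and 4.21%). The median difference was -0.35 for 0.5% against 0.1% and -0.27 for 1.0% against 0.1%, against -0.03 and -0.02 over all genes. Over all genes 0.214% and 0.253% were called in these comparisons, and 0 of the 31 were. Without the 4 arrays apart, 24 of 31 lay lower at 0.5% than at 0.1%, 6 of them rather than 17 at an unadjusted p under 0.05 (3.82% of all genes), with a median of -0.23, and 23 lay lower at 1.0% than at 0.1%, 13 of them at an unadjusted p under 0.05 (4.06%). The count of 17 was also 6 without normalization (2.75% of all genes) and 6 with arrays centred on their medians (2.59%). In each comparison with 0.1%, 3 of the 31 did not overlap and lay lower (0.676% and 0.544% of all genes): Srebf1, Agpat2 and Acsl3 at 0.5%, and Srebf1, Agpat2 and Elovl6 at 1.0%. At 1.0% against 0.5%, 13 of 31 lay lower (48.6% of all genes), 0 of them at an unadjusted p under 0.05 with 1 higher (2.95% and 3.25%), and the median difference was 0.04. The gene with the smallest p there was Acsl3, 0.35 higher at 1.0% than at 0.5% (adjusted p = 0.755), and 0.022% of all genes were called.

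For the slope, 26 of 31 genes lay below 0 (52.4% of all genes), 16 of them at an unadjusted p under 0.05 with 1 above (6.05% and 4.86% of all genes), and the median slope was -0.33, against -0.01 over all genes. None was called, against 0.0989% of all genes. In the test for any difference among the 4 diets none of the 31 was called either (0.181% of all genes), 16 had an unadjusted p under 0.05 (9.49% of all genes), the smallest adjusted p being that of Srebf1, 0.16. Without the 4 arrays apart, 12 of 31 slopes lay below 0 at an unadjusted p under 0.05 (4.14% of all genes) and the median slope was -0.25. The count for 0.5% against control then stood at 1 lower gene rather than 8 (2.61% of all genes), with a median difference of -0.11, whereas that for 1.0% against control was 8 (3.91%) with a median of -0.19. The count of 8 at 0.5% against control was also 0 without normalization (1.02% of all genes) and 4 with arrays centred on their medians (2.12%). Of single genes not given above, the slopes without the 4 arrays were -0.69 for Acaca, -0.69 for Acly, -0.60 for Acacb, -0.43 for Acss2, -0.46 for Me1, -0.27 for Elovl5, -0.15 for Gpam and -0.24 for Acsl5.

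**Figure D3:**
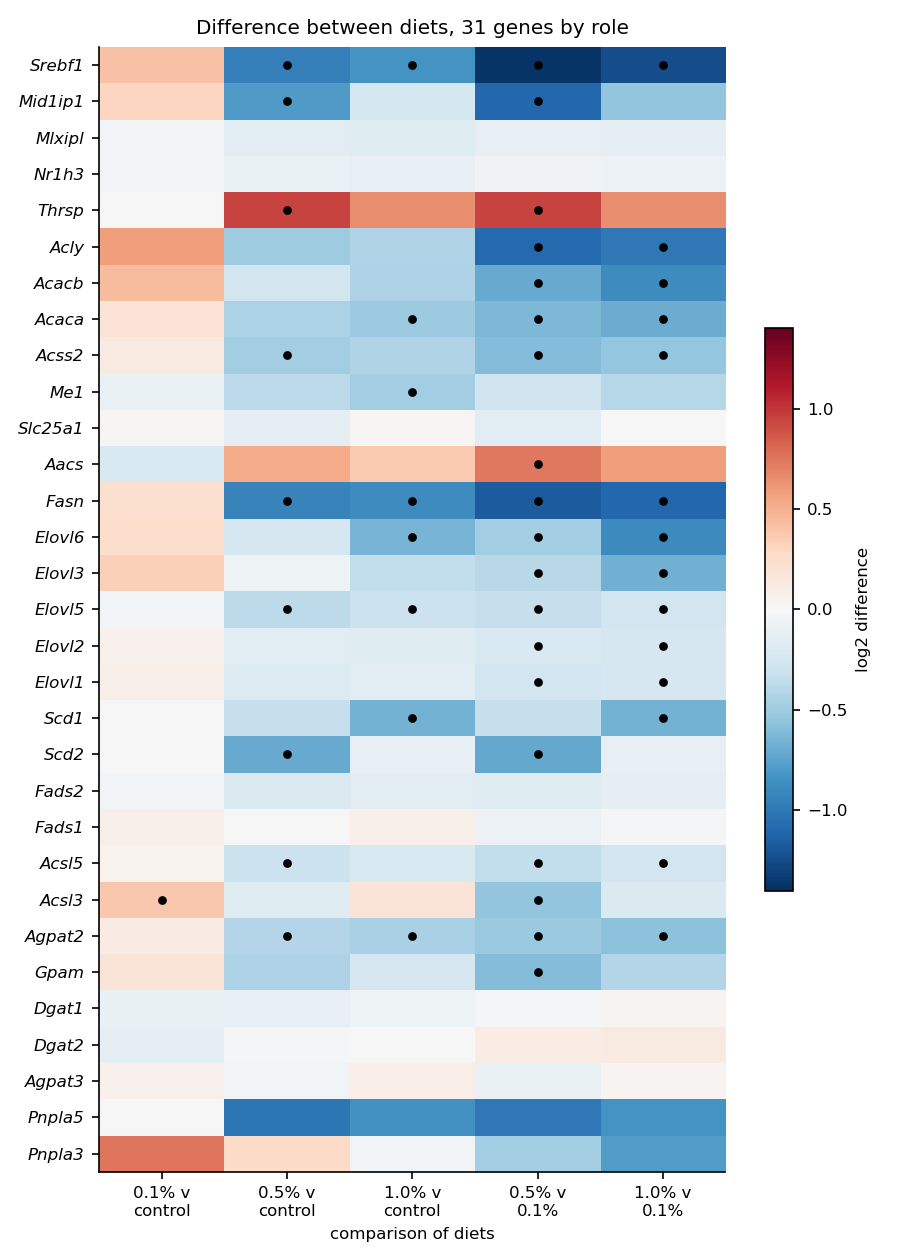
Log2 difference of the 31 measured genes, grouped by role, in 5 comparisons of diets with 6 mice each; colour gives the difference, blue lower and red higher in the first-named diet, and a dot an unadjusted p under 0.05. No difference passed over all genes; the 0.1% column is mostly pale red, and the 4 others are mostly blue, with Thrsp and Aacs red.

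From mouse to mouse within a diet, several genes moved with Srebf1. How many of all genes do so was not computed, so the counts below cannot be read as particular to this pathway. After the mean of each diet was subtracted, the levels of 30 genes were set against Srebf1 over 24 mice, and 14 correlations passed at an adjusted permutation p under 0.05, all of them positive. That of Gpam was r = 0.837 (Spearman rho = 0.851, permutation p adjusted over the 30 relations 0.003), and r was 0.858 without the 2 mice farthest from the Srebf1 median and 0.746 without the 4 arrays apart. Mid1ip1 gave r = 0.727 (rho = 0.731, adjusted permutation p = 0.0054; r = 0.782 without the arrays apart). Fasn gave r = 0.597 (rho = 0.64, adjusted permutation p = 0.0294; r = 0.735 without them).

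For other genes the relation rested on the arrays apart. Agpat2 gave r = 0.827 over all mice (rho = 0.76, adjusted permutation p = 0.004) but 0.317 without those 4 arrays, and Mlxipl gave 0.646 (rho = 0.617, adjusted permutation p = 0.0294) and 0.112 without them. Thrsp gave r = -0.251 over all mice (rho = -0.101, adjusted permutation p = 0.406) and 0.533 without the 4 arrays, in all of which Thrsp lay above and Srebf1 below the mean of its diet. Without the 4 arrays 8 of the 30 relations passed, 7 of them also among the 14 over all mice. The other one was Scd2, whose r was -0.582 without the 4 arrays (adjusted permutation p = 0.0194) and -0.208 with them. All values of a mouse share its array and its normalization.

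**Figure D4:**
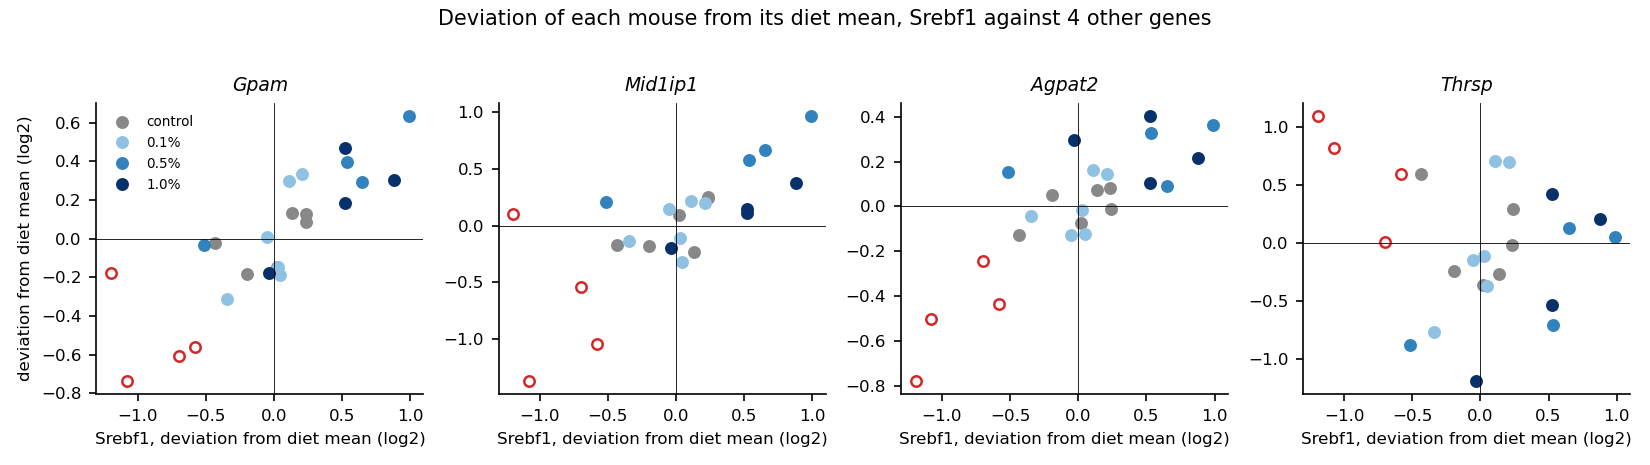
Deviation of each mouse from the mean of its diet (log2) for Gpam, Mid1ip1, Agpat2 and Thrsp against that of Srebf1, 24 mice; colours give the diet and open red points are the 4 arrays apart. With the 4 arrays left out and the diet means taken again, r with Srebf1 was 0.746 for Gpam, 0.782 for Mid1ip1 and 0.317 for Agpat2. The open points lie below 0 for Srebf1 and above 0 for Thrsp, where they overlap the filled points.

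Genes around the pathway were read from lists of other pathway members. Of 23 genes upstream of and processing the sterol response factors, 12 sloped above and 11 below 0 (52.4% of all genes below, median slope over all genes -0.01), their median slope was 0.07, and none passed. The smallest p was that of Irs1, for the insulin receptor substrate through which insulin signals in liver: it had medians of 7.09 in control mice and 7.43, 6.52 and 6.49 at the rising doses and a slope of -1.08 (SE 0.270, adjusted p = 0.0977), or -0.73 without the arrays apart (adjusted p = 0.112). Every mouse at 0.5% and 1.0% lay below every mouse at 0.1% for Irs1. Insig2, for a protein that holds the sterol response factors in the endoplasmic reticulum, had a slope of -0.51 (SE 0.132, adjusted p = 0.108), or -0.44 without them.

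Of 11 measured genes of sugar breakdown and NADPH supply, 9 sloped below 0 (median -0.23) and none passed. Among them were Pgd of the pentose phosphate path (-0.63), Pklr, the liver pyruvate kinase (-0.49), and Khk, the fructokinase (-0.32). Of 21 other genes of chain building, desaturation and activation, 12 sloped below 0 (median -0.04), and of 11 liver X receptor targets outside fatty acid synthesis 8 did (median -0.09). None passed in either list. The smallest p among the receptor targets was that of Abcb11, the bile salt export pump (-0.33, adjusted p = 0.0725).

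Of 17 other measured genes of glycerolipid assembly, 11 sloped above 0 and 6 below (median 0.18). In the comparisons of doses 1 gene of the 17 rose (0.214% of all genes called at 0.5% and 0.253% at 1.0% against 0.1%): Lpin2, for a lipin, which turns phosphatidic acid into diacylglycerol just before the step of Dgat1 and Dgat2. Lpin2 ran from 7.19 to 7.78 in control mice (median 7.35), from 6.71 to 7.09 at 0.1% (median 6.88), from 7.47 to 8.46 at 0.5% (median 8.02) and from 7.43 to 8.46 at 1.0% (median 7.94). All mice of the higher doses lay above all mice at 0.1%. Lpin2 was 1.10 higher at 1.0% than at 0.1% (SE 0.184, limma adjusted p = 0.00668; 0.88 and adjusted p = 0.0269 without the arrays apart) and 1.05 higher at 0.5% than at 0.1% (adjusted p = 0.0249; 0.87 and 0.0535 without them). Its slope over dose did not pass (0.89, adjusted p = 0.09). Nor did those of Lpin1, for another lipin (2.49, adjusted p = 0.161), or of Cidec and Cidea, for proteins of the lipid droplet surface (2.12 and 1.13). In the 4 arrays apart Lpin1 lay at 8.37 to 9.87, against 4.88 to 7.11 in the other mice of the higher doses, and Cidec at 4.52 to 6.97, against 0.620 to 4.64. Without those arrays the slopes were 1.43 for Lpin1, 0.89 for Cidec and 0.62 for Cidea.

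The mice at 0.1% also differed from those at the higher doses in clock genes, which swing with the hour of the day. Of 14 clock genes, 3 rose and 1 fell at 1.0% against 0.1% (0.253% of all genes called). Dbp, an output gene of the clock, had medians of 6.78 in control mice and 4.04, 7.71 and 8.68 at the rising doses, and was 3.96 higher at 1.0% than at 0.1% (adjusted p = 0.00302) and 3.06 higher at 0.5% than at 0.1% (adjusted p = 0.0303). Without the arrays apart Dbp was 4.51 higher at 1.0% and 3.598 higher at 0.5% than at 0.1%. Tef and Nr1d2 rose and Cry1 fell at 1.0% against 0.1% (adjusted p = 0.00302, 0.00599 and 0.00302, and 0.00142, 0.0124 and 0.0119 without the arrays apart). They also did so at 0.5% against 0.1% (adjusted p = 0.0303, 0.0303 and 0.0449), where without those arrays Tef passed (0.0226) but Nr1d2 and Cry1 did not (0.0841 and 0.217). In the summed linear level of the 14 genes, bright genes such as Nr1d2 and Dbp weigh most, and genes that rose and fell are mixed. That sum had medians of 883.3 in control mice and 592.2, 1000 and 1321 at the rising doses. The part of the clock in the differences of the lipogenic genes was not tested.

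Genes induced by fasting lay on both sides of 0, 5 above and 5 below by slope. Their summed level had medians of 4734 in control mice and 5425, 5025 and 3958 at the rising doses. Of 10 measured, 1 was called and fell at 1.0% against 0.1%, where 0.253% of all genes were called. It was G6pc, for glucose-6-phosphatase, at -1.4 (SE 0.271, adjusted p = 0.0302), or -1.58 without the arrays apart (adjusted p = 0.0191). The summed level of 6 neutrophil markers had medians of 47.1 in control mice and 63.7, 68.4 and 81.3 at the rising doses, and no neutrophil gene passed. The part of food state or of other cells in these differences was not tested.

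**Figure D5:**
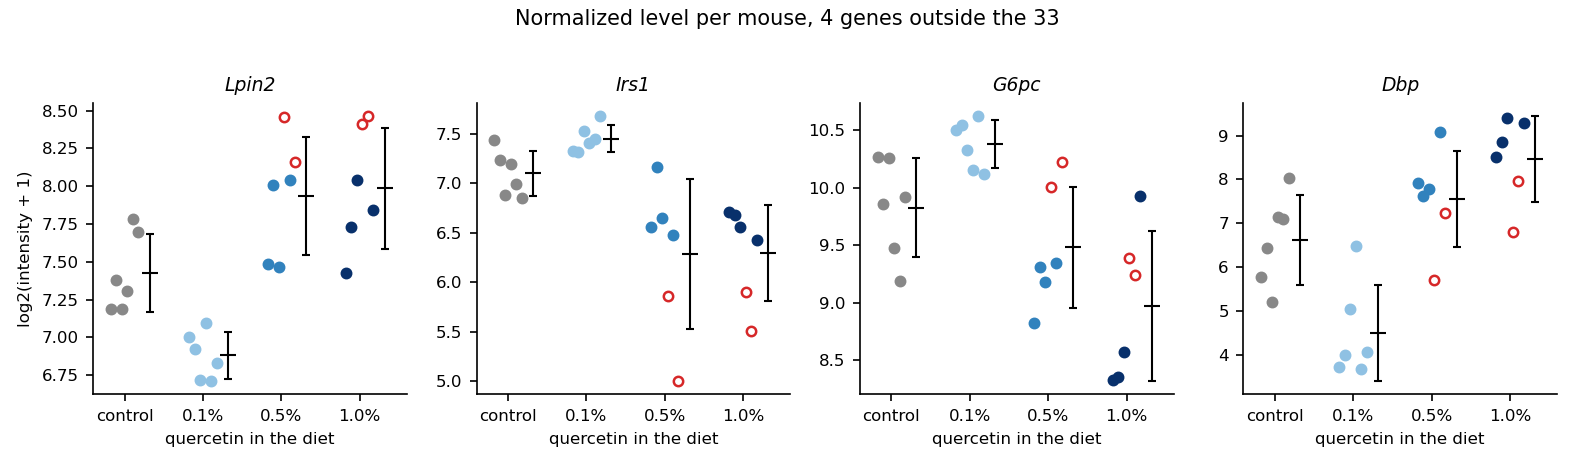
Normalized level, log2(intensity + 1), of Lpin2, Irs1, G6pc and Dbp in each mouse by quercetin content of the diet, 6 mice per diet, with mean ± SD; open red points are the 4 arrays apart. Lpin2 and Dbp are lowest and Irs1 and G6pc highest at 0.1% by their medians.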

How the data were processed

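Per the labels' protocols, each mouse gave 1 biotin-labelled cRNA sample from liver RNA. The authors deposited intensity values on a linear scale for 45101 probe sets; the sources used here name no software, background correction or probe summary. Values were taken as log2(value + 1) and quantile-normalized. The platform annotation named 34945 probe sets with 1 symbol, 932 had several and 9211 were not listed, and 13 control probe sets were left out. For each of 18193 genes the brightest probe set, by its mean over all arrays, was kept. All 24 arrays entered limma 3.58.1 (R 4.3.3) with eBayes, two-sided, for all 6 pairs of diets, the slope over dose and any difference. The number of arrays limits the precision. P-values measure the spread between mice, whose cages are not known. Correlations used 100000 permutations within diets (scipy 1.17.1).

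Members and gene lists were chosen with earlier results of these data known. Values and statistics were given for the 10 members with the smallest p for the slope, the 6 with the smallest p in each comparison of diets, 9 fixed regulators and enzymes, and from other lists up to 4 genes with the smallest p for the slope and any that passed. Of the 19 members with more than 1 probe set, 14 had another one brighter than the median probe set, and 16 of those 22 probe sets sloped the same way. Same-numbered mice did not deviate together (median correlation 0.00392, range -0.0641 to 0.111, over 36 pairs), and no 2 arrays were identical. On simulated arrays, 42% of 50 genes changed by 1 log2 unit at 1.0% against control and 52% of 50 for the slope were recovered among 18193 genes, with 7 of 127 and 4 of 140 calls false. That simulation changed 50 genes at each of 0.5, 1, 2 and 3 log2 units together, with equal, independent normal spread in every diet. In the data fewer genes were called and genes such as Srebf1 scattered more at the higher doses, so these shares may overstate recovery. Alternatives were other normalizations, a pseudocount of 16, dim probe sets left out, the mean of a gene's probe sets, other eBayes settings, the groups compared alone, the replicate number as a block, sets of 3 replicates as a random effect, each array left out and the 4 arrays apart left out.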

Additional observations from a re-analysis of the deposited data

Results flagged for a closer look

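In 5 of 124 gene and diet pairs, 1 mouse lay far from the other 5 of its diet by Dixon's test, which flags about 1 in 20 groups by chance. Nr1h3 was 7.22 in replicate 5 at 1.0% quercetin, with the others at 7.41 to 7.46. Scd2 was 1.63 in replicate 4 at 0.5%, with the others at 3.07 to 3.82. Both of these mice were among the 4 whose arrays stood apart. Pnpla3 was 1.19 in replicate 6 at 0.1%, with the others at 3.32 to 3.98, and Agpat3 was 7.66 in replicate 4 at 0.1%, with the others at 7.90 to 8.02. Fads2 was 9.59 in replicate 1 of the control mice, with the others at 9.10 to 9.26.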

How the results depend on the processing

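No member passed under no normalization, median centring, the mean of probe sets, the replicate block, the random effect, the arrays apart left out or the groups compared alone. Members passing, with 0 in the main setting, were 1 (Srebf1) at 0.5% against 0.1%, 3 (Scd1, Elovl3, Elovl6) at 1.0% against 0.1% and 2 (Scd1, Elovl6) for the slope with a pseudocount of 16, then 1, 2 and 2 with dim probe sets left out, and 1 (Scd1) for the slope with trend and robust eBayes. Leaving out 1 mouse gave 0 to 1 members at 0.5% against 0.1% (Srebf1, adjusted p = 0.0405 without 0.5% replicate 3), at 1.0% against 0.1% (Scd1 without 0.5% replicate 6, Elovl3 without 1.0% replicate 4) and for the slope (Scd1, without 0.5% replicate 6, 1.0% replicate 2 or 1.0% replicate 6), and 0 elsewhere. The cause of each was not tested.

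Counts over all genes, given for 0.5% against control (3 in the main setting), 1.0% against control (4), 0.5% against 0.1% (39), 1.0% against 0.1% (46), 1.0% against 0.5% (4), any difference (33) and the slope (18), moved as follows. Without normalization they were 5, 0, 21, 6, 0, 4 and 0. Centred on medians, the first 2 were 7 and 2, 1.0% against 0.1% gave 20 and 1.0% against 0.5% gave 1. With a pseudocount of 16 the pairs with 0.1% gave 100 and 111, any difference 97 and the slope 103, and with dim probe sets left out 90, 115, 70 and 111. The mean of probe sets gave 7 at 1.0% against control, 21 at 0.5% against 0.1% and 1 at 1.0% against 0.5%. The fit with the replicate block gave 0 at 0.5% against control, 21 at 0.5% against 0.1% and 0 at 1.0% against 0.5%, and changed no call of a member. Sets of 3 as a random effect (consensus correlation 0.0445, or 0.0565 for the slope) gave 1 at 0.5% against control, 7, 22 and 0 for the pairs of doses and 7 for the slope. Without the arrays apart the counts were 1 and 0 against control, 10 at 0.5% against 0.1% and 0 at 1.0% against 0.5%. Trend and robust eBayes gave 91, 91 and 2 for the pairs of doses, 86 for any difference and 85 for the slope. The groups compared alone, which have fewer arrays, gave 0, 1, 7, 10 and 0. Leaving out 1 mouse gave 0 to 1 at 0.1% against control, 0 to 6, 4 to 7, 4 to 59, 18 to 62, 0 to 8, 17 to 49 and 4 to 61. Relations with Srebf1 that passed numbered 24 without normalization and 8 without the arrays apart, against 14.

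Without normalization the median of all genes was 0.11 higher at 0.1%, 0.15 higher at 0.5% and 0.05 higher at 1.0% than in control, 17 of 31 members lay below control at 0.5% (30.3% of all genes) and over the alternatives run, Acacb, Acly and Elovl6 at 0.5% against control changed sign in at least 1. Of 34 alternatives, at 1.0% against 0.1% Lpin2 passed in 31, G6pc in 24, Dbp in 34, Tef in 33, Nr1d2 in 32 and Cry1 in 34, and at 0.5% against 0.1% Lpin2, Dbp and Tef in 23 each, Nr1d2 in 20 and Cry1 in 10. Dim genes such as Pnpla3, Pnpla5 and Scd2 are least precise.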
